A study of Mus musculus with 4 samples.

Results

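Transcript levels of 8 genes that restrain mTORC1 or cap-dependent translation were followed in mouse liver between fasting and re-feeding: the sestrins Sesn1, Sesn2 and Sesn3, Ddit4, the tuberous sclerosis genes Tsc1 and Tsc2, and the eIF4E-binding proteins Eif4ebp1 and Eif4ebp2. They were taken by gene name from the non-control spots of 4 two-colour oligonucleotide arrays, and each was represented by 1 probe of 60 bases. The arrays named 31709 genes in all. To be tested, a probe had to stand well above local background in every liver of fasted or re-fed mice, with a ratio from each array. This filter kept 7 of the 8 genes, all except Tsc2, among 16054 genes and 19721 of 39429 probes.

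The animals were male C57BL/6J mice aged 8 to 12 weeks with no genetic modification, and whole liver was profiled. Fasted mice had no food for 24 h; re-fed mice had the same fast and then food for 2 h, so that both groups had been fasted. RNA of 4 fasted and 4 re-fed livers was labelled, and each array carried 1 liver of each group. Arrays are numbered as replicates 1 to 4 (n = 4). The fasted liver carried the red dye Cy5 on replicates 1 and 2 and the green dye Cy3 on replicates 3 and 4. Ratios are given as log2 of fasted over re-fed liver, so that positive values are higher levels in fasted liver.

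mTORC1 is a protein kinase complex on the lysosome that drives protein synthesis when amino acids and insulin are plentiful. Sestrins restrain it when amino acids are scarce by binding GATOR2, Ddit4 (REDD1) restrains it under stress, and the TSC1-TSC2 complex switches off its activator, the small GTPase RHEB. The eIF4E-binding proteins act downstream: when mTORC1 is inactive they are dephosphorylated and hold the cap-binding factor eIF4E. Much of this control acts on the proteins through binding and phosphorylation, which transcript arrays do not measure.

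All 6 hepatocyte markers (Alb, Apoa1, Ttr, Tat, Cps1 and Serpina1a) were well above background in all 8 livers. Markers of other tissues differed between arrays. Over 7 pancreatic acinar markers, 4 of them kept, the median ratio lay between -0.04 and 0.02 on 3 arrays but at -3.79 on replicate 3, where Clps stood at -5.05. The median of 3 blood markers was 2.35 on replicate 1 and 2.37 on replicate 3, against -0.27 and 0.23 on replicates 2 and 4. Medians of 5 immune markers lay between -0.17 and 0.26, although the B-cell marker Cd79b stood at 0.19, -0.17, 1.01 and 0.95 on replicates 1 to 4. Of 3 adipose markers, Plin1 was not well above background in any liver. Median red signals of gene spots were 40 to 75 over a background of 25 to 35, and green signals 44 to 96 over 20 to 32.5. The 4 arrays correlated at 0.66 and 0.75 within a dye orientation and at 0.22 to 0.40 between orientations, across the kept probes, which are not independent replicates. In whole liver, fewer cells of a type and less RNA per cell cannot be told apart.

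The probes that the results turn on are those of Sesn2, Tsc1 and Ddit4, and their first 30 bases are printed to identify the sequence that each one reads. In the mm9 build of the files they lie at chr4:132048858-132048917 on the minus strand, chr2:28546610-28546669 on the plus strand and chr10:59412486-59412545 on the minus strand. The files do not say whether these positions are coding or untranslated.

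Sesn2 probe: agcccgtggtggtctccctgctgtctgaag
Tsc1 probe: gctgtctttagaatgttctaaaatgtcaag
Ddit4 probe: tgccacctgggtcttccatctagaacctgt

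None of the 7 measured genes was called in limma, where a call asked for 1.5-fold or more and a p under 0.10 after adjustment over all kept probes. Across the arrays these limits called 1.7% of probes higher and 2.07% lower in fasted liver, and at an unadjusted p under 0.05 the 7 genes gave 3, where 21.6% of all kept probes passed in either direction. SAM, the test of the study's methods, called 0 of the 7 at a false discovery rate of 10% and 1.5-fold, against 1.88% of probes higher and 2.22% lower. The 2 with an adjusted p under 0.10, Tsc1 and Sesn2, were both higher in fasted liver by less than 1.5-fold; without the fold limit 4.72% of all kept probes were called higher and 6.11% lower. Their levels in the 4 fasted and 4 re-fed livers did not overlap, as for 13.6% of kept probes. In the plot of ratios by array, Tsc1, Sesn1, Sesn2 and Eif4ebp1 are positive on all 4 arrays, while Sesn3, Ddit4 and Eif4ebp2 have both signs; of all kept probes, 29.6% have 1 sign on all 4 arrays.

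**Figure D1:**
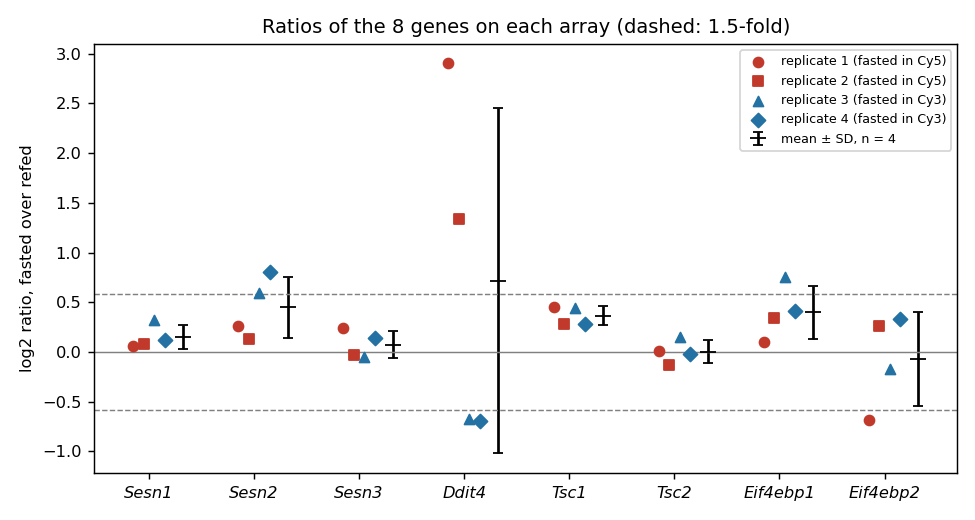
The log2 ratio of fasted over re-fed liver (vertical axis) of each gene on each of the 4 arrays; red points have the fasted liver in Cy5, blue points in Cy3, the bar is mean ± SD (n = 4) and the dashed lines mark 1.5-fold. Ddit4 reaches 2.90 on replicate 1 and -0.69 on replicate 4, whereas the 4 ratios of Tsc1 lie between 0.28 and 0.46.

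Sesn2, a leucine-sensing sestrin, had log2 ratios of 0.26, 0.13, 0.60 and 0.80 on replicates 1 to 4. Its normalised log2 intensity was 8.39, 8.17, 8.49 and 8.56 in the fasted livers and 8.14, 8.04, 7.89 and 7.75 in the re-fed livers. Each fasted liver lay above every re-fed liver. Its ratio was highest on replicates 3 and 4, where the fasted liver was in Cy3. Of the 5 immune markers Cd79b was high on both of these arrays, while the immune medians there were 0.26 and -0.01. The part of B cells in the Sesn2 ratio was not tested. The mean ratio was 0.45 ± 0.31 (SD, n = 4), which is 1.36-fold, with a 95% confidence interval of 0.15 to 0.75 and an adjusted p of 0.0979 in limma. The difference was unevenly spread over the dye orientations: the mean was 0.20 with the fasted liver in Cy5 and 0.70 with it in Cy3, and a dye term fitted to this probe was -0.25 with an adjusted p of 0.0784 in limma. Such a dye effect was called for 14.8% of all kept probes. With that term in the model the adjusted p for fasting was 0.00938.

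Sesn1, a p53 and FOXO target among the sestrins, had ratios of 0.06, 0.08, 0.32 and 0.12. All 4 were positive and small, and the fasted and re-fed levels overlapped. Its mean was 0.15 ± 0.12 (SD, n = 4) with a 95% interval of -0.04 to 0.34 and an adjusted p of 0.353 in limma. Sesn3, the third sestrin and also known as a FOXO target, had ratios of 0.24, -0.04, -0.05 and 0.14. Its mean of 0.07 ± 0.14 (SD, n = 4) had an interval of -0.12 to 0.27 (limma adjusted p 0.684), so that a difference of 1.5-fold lay outside the intervals of both genes.

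The ratio of Sesn2 exceeded that of Sesn3 on every array, by 0.02, 0.17, 0.64 and 0.67, a mean of 0.38 ± 0.33 (SD, n = 4). Most of this excess lay on replicates 3 and 4, where the fasted liver was in Cy3. The ratio of Sesn2 exceeded that of Sesn1 on every array too, by a mean of 0.30 on the log2 scale. Sesn1 and Sesn3 differed by 0.07 ± 0.23. The exact two-sided sign-flip test gave p = 0.125 for the comparisons with Sesn2 and 0.75 for Sesn1 against Sesn3. With 4 arrays 0.125 is the smallest p that this test allows, and over the 4 pairs of paralogs compared here the adjusted values were 0.167 and 0.75. The test could not have reached 0.05 with 4 arrays, so it leaves undecided whether the paralogs differ.

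Tsc1, the partner that stabilises TSC2 in the complex, had the most even ratios of the 7 genes: 0.46, 0.28, 0.44 and 0.28. The higher values were on replicates 1 and 3, where the blood markers had medians of 2.35 and 2.37, and the part of blood in them was not tested. The fasted livers lay at a log2 intensity of 9.42, 9.29, 9.42 and 9.37 and the re-fed livers at 8.96, 9.01, 8.98 and 9.09. Within each group the livers spread by an SD of 0.06 and 0.05, less than the distance between the groups. The mean ratio was 0.37 ± 0.10 (SD, n = 4), which is 1.29-fold, with a 95% interval of 0.19 to 0.55 and a limma adjusted p of 0.0447. The whole interval lies under 1.5-fold. The mean was 0.37 with the fasted liver in Cy5 and 0.36 with it in Cy3.

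Tsc2, which carries the GTPase-activating domain for RHEB, could not be compared. Its probe (chr17:24732882-24732941, minus strand, mm9) was well above background in 0 of 4 fasted and 1 of 4 re-fed livers, with raw signals of 31 to 76 over local backgrounds of 20.5 to 35.5. No fold change is given for it.

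The 2 adjusted p-values under 0.10 rest on all 4 arrays. Leaving out any one replicate raised the adjusted p of Tsc1 to between 0.108 and 0.195 and that of Sesn2 to between 0.119 and 0.301, with mean ratios of 0.34 to 0.39 and 0.33 to 0.55. Without replicate 3, where acinar markers were higher in the re-fed liver, the values were 0.34 with an adjusted p of 0.195 for Tsc1 and 0.40 with 0.301 for Sesn2 in limma. Centring each array on its median in place of loess gave 0.26 for Tsc1 and 0.37 for Sesn2, with adjusted p-values of 0.163 and 0.173.

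**Figure D2:**
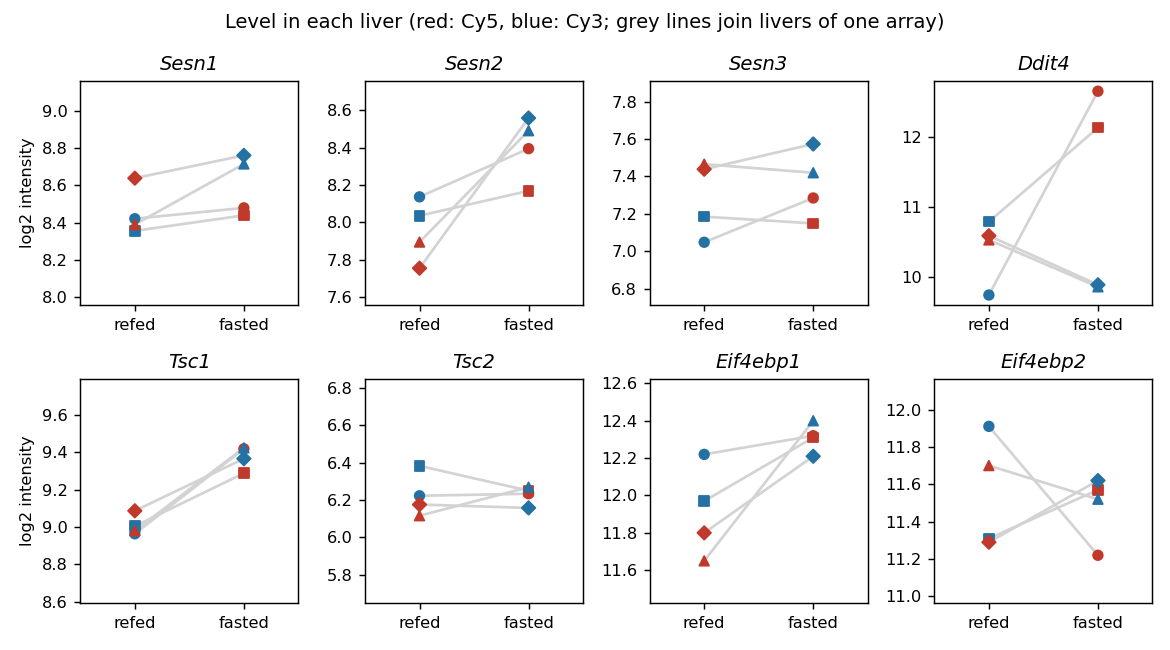
Normalised log2 intensity (vertical axes, a scale of its own for each gene) of the 8 genes in each re-fed and fasted liver; red is Cy5, blue is Cy3, the shapes are the replicates (circle 1, square 2, triangle 3, diamond 4) and grey lines join the 2 livers of an array. The groups are separate for Sesn2 and Tsc1, and for Ddit4 the fasted livers of replicates 1 and 2 stand at 12.65 and 12.13 above the other 6.

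Ddit4, a stress- and glucocorticoid-responsive inhibitor that acts through the TSC complex, had the largest ratios and no common direction. They were 2.90 and 1.33 on replicates 1 and 2 and -0.67 and -0.69 on replicates 3 and 4. The mean of 0.72 ± 1.74 (SD, n = 4) had a 95% interval of -0.73 to 2.17 and an adjusted p of 0.568 in limma. Without replicate 1 the mean was -0.0101.

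The sign of the Ddit4 ratio followed the dye orientation, which on these arrays is also a split between livers. In the fasted livers its log2 intensity was 12.65 and 12.13 in Cy5 (replicates 1 and 2) but 9.86 and 9.89 in Cy3 (replicates 3 and 4). In the re-fed livers it was 9.75 and 10.79 in Cy3 and 10.53 and 10.59 in Cy5. Fasted livers labelled with Cy5 thus lay 2.51 above those labelled with Cy3, whereas the re-fed livers differed by 0.29 between the dyes. The raw signal showed the same split, at 3805.5 and 4374 in the first 2 fasted livers, 1017 and 1253.5 in the other 2, and 650.5 to 2031 in the re-fed livers.

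A dye term for Ddit4 came to 1.40 with an adjusted p of 0.0382 in limma, and only 4 of the 19721 kept probes, Ddit4 included, had one as large in either direction. With the dye term in the model Ddit4 was called higher in fasted liver (limma adjusted p 0.0898), as were 1.93% of kept probes, and it was then the only one of the 7 genes called. That model treats the split between the first and last 2 arrays as a dye effect common to both conditions. A difference between fasted livers and an effect of the dye cannot be told apart for this gene, since every fasted liver was labelled with 1 dye only.

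Other probes split by dye orientation too, and 3 of them, chosen after the values were seen, are set beside Ddit4. The probes whose 4 ratios came nearest to those of Ddit4, by mean absolute difference, were those of Ung, Septin3 and 9530083O12Rik. Ung, a uracil-DNA glycosylase, had ratios of 1.64, 1.497, -0.64 and -0.66, and its Cy5 level exceeded its Cy3 level by 1.13 in fasted and by 1.09 in re-fed livers. For Septin3 these excesses were 1.06 and 0.98, and for 9530083O12Rik 0.88 and 1.15. In these 3 the excess was of like size in both conditions, whereas that of Ddit4 was 2.51 in fasted and 0.29 in re-fed livers. The 4 probes with the largest dye terms were those of Ddit4, Osgin1 and Bcl6 and 1 of Amy2a5. For Osgin1 the difference of Cy5 over Cy3 was -1.94 in fasted and -0.86 in re-fed livers, uneven but of 1 sign. For Bcl6 it was of like size, at 1.33 and 1.67. The Amy2a5 probe had -0.55 and 3.87, but its term rests on replicate 3, where its ratio was -6.80.

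**Figure D3:**
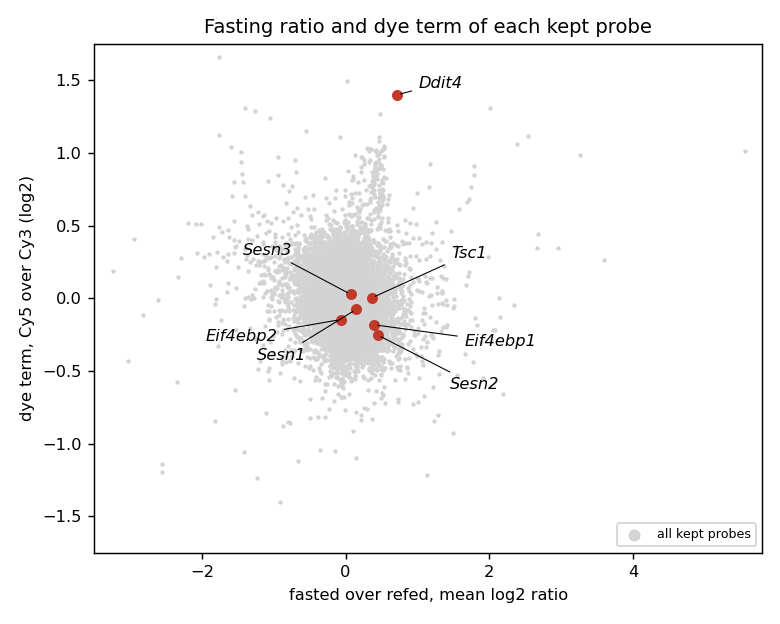
Each grey point is 1 of the 19721 kept probes and each red point 1 of the 7 measured genes, by mean log2 ratio of fasted over re-fed liver (horizontal axis) and by the dye term, log2 of Cy5 over Cy3 (vertical axis). Ddit4 stands at the edge of the cloud with a dye term of 1.40, while the other 6 genes have terms between -0.25 and 0.03.

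Eif4ebp1, an inhibitor of eIF4E and a known ATF4 target, had ratios of 0.10, 0.34, 0.75 and 0.41. Its probe lies at chr8:28385887-28385946 on the plus strand (mm9). The fasted livers had log2 intensities of 12.32, 12.31, 12.40 and 12.21 and the re-fed livers 12.22, 11.97, 11.65 and 11.80. The groups met only at 1 point, where the re-fed liver of replicate 1 stood just above the lowest fasted liver. The mean was 0.40 ± 0.27 (SD, n = 4), 1.32-fold, with a 95% interval of 0.12 to 0.67, and the limma adjusted p of 0.104 lay just past the limit. With the dye term it was 0.0242. Leaving out any one replicate gave means of 0.28 to 0.50 with limma adjusted p-values of 0.077 to 0.301. Median centring gave a mean of 0.25 with a limma adjusted p of 0.382.

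Eif4ebp2, its paralog, had ratios of -0.69, 0.26, -0.18 and 0.33. Both signs occurred within each dye orientation, and the mean of -0.07 ± 0.47 (SD, n = 4) had an interval of -0.49 to 0.36 (limma adjusted p 0.882). Without replicate 1 the mean turned to 0.14. Eif4ebp1 exceeded Eif4ebp2 on all 4 arrays, by 0.79, 0.07, 0.93 and 0.08. The difference was large only on replicates 1 and 3, where Eif4ebp2 was negative and the blood markers were high in fasted liver, and the part of blood was not tested. That mean of 0.47 ± 0.45 (SD, n = 4) gave p = 0.125 in the exact sign-flip test, again the smallest possible.

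The median ratio of the 7 genes was 0.37, and that of all 16054 genes by their brightest kept probe was 0.003257. No test was made of that difference, because the genes were chosen with results of these data known. By the same rule, 1.82% of all genes were called higher and 2.12% lower, or 4.94% and 6.27% without the fold limit, and the pathway lists below are read against these shares.

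The first list held the mTORC1 subunits and their partners, RHEB, and Tbc1d7, a subunit of the TSC complex. All 7 genes were tested and none was called, with Tbc1d7 at -0.34 (limma adjusted p 0.182). The largest ratio among them was that of Mlst8, a core subunit of both mTOR complexes, at -0.45, -0.58, -0.48 and -0.53. Its mean of -0.51 ± 0.06 (SD, n = 4) had a limma adjusted p of 0.0163 but stayed under 1.5-fold. The median of these 7 genes was -0.22.

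The lysosomal arm held 1 called gene. Of the 11 tested of 13 Rag GTPase, Ragulator and folliculin genes, Flcn rose and none fell, with a median of -0.08. Flcn, the folliculin that serves Rag GTPases as a GTPase-activating protein, had ratios of 0.64, 0.996, 0.90 and 0.88. The mean was 0.85 ± 0.15 (SD, n = 4), 1.80-fold higher in fasted liver with a limma adjusted p of 0.00704. A second Flcn probe gave 0.65 with an adjusted p of 0.0354 and was also called. Flcn was called with any one array left out, at adjusted p-values of 0.012 to 0.0454 in limma. Fnip1, the partner of folliculin, had a mean of 0.45 with a limma adjusted p of 0.0639, under the fold limit.

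No gene passed the limits in the complexes through which sestrins act. None of the 9 tested of 10 GATOR and CASTOR genes was called, the largest ratio being that of the GATOR1 subunit Nprl2, at -0.26 ± 0.11 (SD, n = 4; limma adjusted p 0.11), and their median was -0.06. None of the 7 tested of 8 genes of AMPK and its kinase LKB1 was called either. The largest of these was Prkab2, an AMPK beta subunit, at -0.20 ± 0.11 (SD, n = 4; limma adjusted p 0.19), and the median was 0.05.

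Downstream, none of the 14 cap-binding and S6 kinase genes was called and their median was 0.05. The largest was Eif4ebp3, the third eIF4E-binding protein, with ratios of 1.49, 0.34, 1.35 and -0.21, high on the replicates 1 and 3 where the blood markers were high in the fasted liver. Its mean was 0.74 ± 0.81 (SD, n = 4) with a limma adjusted p of 0.204. The part of blood in this value was not tested.

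The translation brake that works through phosphorylation of eIF2alpha held the largest difference of the lists. Of 12 genes tested, 1 rose and 2 fell, with a median of -0.0101. Without the fold limit 2 were higher and 3 lower, with Ppp1r15a at 0.31 and Ppp1r15b at -0.35 added (limma adjusted p 0.0604 and 0.07). Ddit3 (CHOP), a stress-induced transcription factor, had ratios of -1.61, -2.02, -1.82 and -1.78. It was lower in fasted liver by a mean of -1.80 ± 0.17 (SD, n = 4; limma adjusted p 0.0017). Eif2ak3 (PERK), the eIF2alpha kinase of the endoplasmic reticulum, had ratios of -0.62, -0.52, -1.40 and -0.80, with a mean of -0.83 ± 0.39 (SD, n = 4; limma adjusted p 0.0328). Its lowest ratio was on replicate 3, where the acinar markers had a median of -3.79; without that array the mean was -0.65 and it was still called (limma adjusted p 0.0711), whereas without replicate 4 the adjusted p was 0.101. Ddit3 was called with any one array left out. Trib3, a pseudokinase induced by ATF4 and CHOP, moved the other way, with ratios of 1.38, 0.59, 0.82 and 0.21, a mean of 0.75 ± 0.49 (SD, n = 4) and a limma adjusted p of 0.069. It was highest on replicates 1 and 3, where the blood markers stood at 2.35 and 2.37, and the part of blood in it was not tested. Without replicate 1 its mean was 0.54, under 1.5-fold. Without replicate 2 or 3 its mean was 0.80 or 0.73, with a limma adjusted p of 0.162 or 0.216. Without replicate 4 the mean was 0.93 and it was called (limma adjusted p 0.0667). Atf4 itself had a mean of -0.36 with a limma adjusted p of 0.137.

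Of 10 further regulators, namely FOXO and AKT genes, Trp53, Nr3c1, Hif1a, the paralog Ddit4l and Nupr1, 7 were tested and Nupr1 fell. Nupr1, a stress-induced chromatin protein, had ratios of -0.01, -1.27, -1.54 and -1.16. Its mean was -0.997 ± 0.68 (SD, n = 4; limma adjusted p 0.069), and replicate 1 was near 0. The lowest Nupr1 ratio was on replicate 3, where the acinar markers had a median of -3.79, and the part of acinar tissue was not tested. Without replicate 2, 3 or 4 its mean was -0.91, -0.82 or -0.94. The limma adjusted p was then 0.204, 0.22 or 0.196. Without replicate 1 the mean was -1.325 and it was called (limma adjusted p 0.00892). Foxo1, a fasting-active transcription factor, was not called, with ratios of 0.23, 1.37, 0.42 and 0.47, a mean of 0.62 ± 0.51 (SD, n = 4) and a limma adjusted p of 0.115, and its second probe gave 0.65 (limma adjusted p 0.117). Ddit4l had a mean of -0.10 (limma adjusted p 0.573), and the median of the 7 genes was -0.03.

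**Figure D4:**
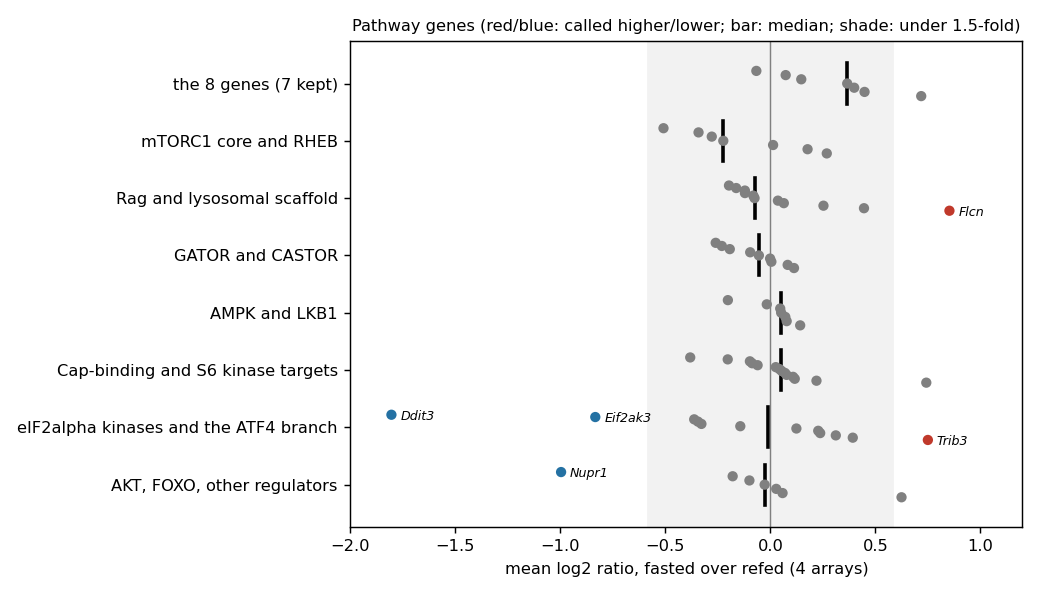
Mean log2 ratio of fasted over re-fed liver (horizontal axis, n = 4 arrays) of each tested gene in each list; red and blue points were called higher and lower, black bars are list medians and the shaded band lies under 1.5-fold. Flcn, Trib3, Eif2ak3, Ddit3 and Nupr1 are the called genes, and 6 of the 7 measured brakes lie within the band.

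Promoter windows of RefSeq genes (GRCm38.p6, 250 bases before to 50 after the start) were on hand for 7 of the 8 genes, with 2 windows for Sesn1 and none for Eif4ebp1. They were searched on both strands for 4 motifs of factors active in fasting, nutrient or stress responses. The short cAMP response element TGACG, read by CREB, occurred in the windows of Eif4ebp2, Sesn1 and Tsc1, and in 20.8% of all 32851 windows. The FOXO core GTAAACA occurred in 1 window of Sesn1, 23 bases after the start, and in 3.65% of all windows. The ATF4 and C/EBP composite core TGATGNAA (3.97% of all windows) and the E-box CACGTG (7.15%) were in none of the 8 windows. The TATA box TATAAA, searched to check the orientation of the windows, was in none of the 8 and in 13.6% of all. The motifs do not overlap each other in these windows.

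The 250 bases before the start are shown for the 2 genes with an adjusted p under 0.10 and for Ddit4, with a motif match in capitals. The regions are chr4:132510457-132510706 (minus strand) for Sesn2, chr2:28640983-28641232 (plus strand) for Tsc1 and chr10:59951771-59952020 (minus strand) for Ddit4, in GRCm38.p6. Tsc1 holds CGTCA, the same element on the other strand, at position -139 from the start. Sesn2 and Ddit4 hold none of the 4 motifs.

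Sesn2 upstream: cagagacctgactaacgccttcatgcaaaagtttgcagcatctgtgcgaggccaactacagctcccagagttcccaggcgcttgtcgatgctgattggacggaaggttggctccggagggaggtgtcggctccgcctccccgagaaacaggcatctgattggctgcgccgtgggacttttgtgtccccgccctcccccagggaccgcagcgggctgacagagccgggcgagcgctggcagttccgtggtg
Tsc1 upstream: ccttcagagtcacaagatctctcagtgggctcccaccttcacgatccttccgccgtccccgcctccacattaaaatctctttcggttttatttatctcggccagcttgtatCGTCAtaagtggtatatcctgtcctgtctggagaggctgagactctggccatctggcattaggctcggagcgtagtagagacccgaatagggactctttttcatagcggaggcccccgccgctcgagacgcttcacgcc
Ddit4 upstream: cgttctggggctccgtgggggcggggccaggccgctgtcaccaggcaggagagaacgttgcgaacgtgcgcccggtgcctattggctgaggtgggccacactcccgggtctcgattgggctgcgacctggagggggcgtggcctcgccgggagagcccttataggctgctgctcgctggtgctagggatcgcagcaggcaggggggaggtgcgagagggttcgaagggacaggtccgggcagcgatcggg

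**Figure D5:**
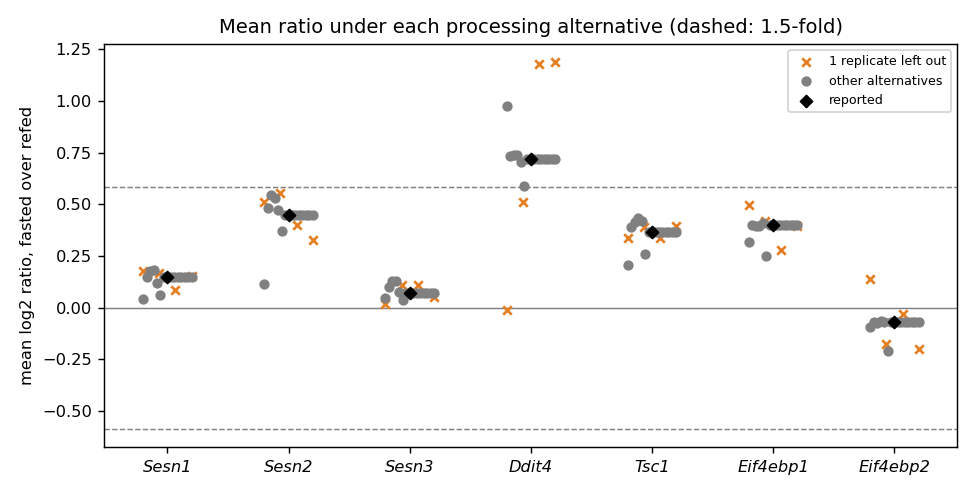
Mean log2 ratio of fasted over re-fed liver (vertical axis) of the 7 measured genes as reported (black), with 1 replicate left out (orange crosses) and under the other processing alternatives (grey); dashed lines mark 1.5-fold. Means of Sesn2, Tsc1 and Eif4ebp1 are positive throughout, whereas Ddit4 runs from -0.0101 to 1.19.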

How the data were processed

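RNA of 4 fasted and 4 re-fed livers was compared on 4 two-colour Agilent arrays with a dye swap. The authors deposited scanner files, written by Feature Extraction 10.10.1.1 per the file headers, whose values are raw intensity per spot with local backgrounds and quality flags, and a table of one log2 ratio per spot and array after loess. All columns of the latter run as fasted over re-fed, which was checked against the scanner values (correlation with the loess ratios of kept probes 0.975 to 0.992; with unnormalized ratios of gene spots 0.34 on replicate 1 and 0.86 to 0.96 on the others); it served as an alternative.

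All arrays lay on 1 slide. limma 3.58.1 (R 4.3.3) read the median signals. Spots whose local background exceeded 3 times the array's median (55 in all) were left out before normexp with an offset of 50. Without this step, chosen with earlier counts of calls known, normexp gave far fewer calls. Ratios were normalized by loess over gene spots, 197 to 322 spots per array with outlier flags were dropped, and spots of a probe were averaged. Levels per liver were derived from the ratios after scaling average intensities between arrays (Aquantile). Ratios were tested with lmFit and eBayes, two-sided, with Benjamini-Hochberg adjustment over 19721 probes. SAM, which the study's methods name, was rebuilt with all 16 sign flips. Each gene of a list entered by its brightest kept probe. The steps were tested on simulated data. The number of arrays limits the precision.

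The 8 genes, the lists and the tests were chosen with earlier results of these data known. Of each list, the called genes are named, or the gene with the largest ratio where none was called. Tbc1d7, Fnip1, Ppp1r15a, Ppp1r15b, Atf4, Asns, Foxo1, Ddit4l and the second Flcn probe are named beside them. Probes were named through RefSeq (GRCm38.p6) by accession (26055 probes) or by symbol (4125 more). Alternatives covered background correction, source of values, normalization, filters, flags, a dye term, separate channels, test, thresholds, probe choice and each replicate left out.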

Additional observations from a re-analysis of the deposited data

Results flagged for a closer look

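The median ratio of the pancreatic acinar markers stood apart on replicate 3, where the gap to the nearest other array took 0.986 of the whole range. The median of the 3 adipose markers stood apart on the same array, with a gap of 0.881 of the range; it was -0.36 there and between 0.01 and 0.06 on the others, and only 1 of these markers was kept. Chance flags about 1 in 20 such groups, and 22 were looked at, the 8 genes among them.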

How the results depend on the processing

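Of 19 alternatives, 8 reuse the same ratios and cannot move a mean; in the other 11, the means of Sesn1, Sesn2, Sesn3, Eif4ebp1 and Tsc1 kept their sign. Without replicate 1 the mean of Ddit4 was -0.0101 and that of Eif4ebp2 0.14; leaving out each replicate in turn gave -0.0101 to 1.19 and -0.20 to 0.14. The number of the 7 genes called was 0, except with a dye term (1, Ddit4 at 0.72) and without the fold limit (2, Sesn2 at 0.45 and Tsc1 at 0.37). SAM called 371 probes higher and 438 lower and 0 of the 7 genes.

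Over all kept probes, 335 were called higher and 409 lower. These counts were 5 and 16 with normexp on all spots, 550 and 713 with subtracted background, 691 and 884 with Agilent's processed signals and 931 and 1205 without the fold limit. Median centring gave 635 lower and moved the share of higher calls from 45.03% to 26.6%, with a median ratio of -0.06 over all tested probes. Leaving out 1 replicate gave 209 to 414 higher and 257 to 525 lower, lowest without replicate 3.

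Under normexp on all spots the means were 0.12 for Sesn2, 0.32 for Eif4ebp1 and 0.21 for Tsc1, each with a limma adjusted p of 0.559. Ddit4 stood at 0.98 there. None of Flcn, Trib3, Eif2ak3, Ddit3 and Nupr1 was called, at means of 0.47, 0.54, -0.33, -0.98 and -0.35. With no filter on dim probes Trib3 and Nupr1 were not called (limma adjusted p 0.107 and 0.111). Over the 15 alternatives with a fit of their own the adjusted p was under 0.10 for Sesn2 in 8, for Tsc1 in 9 and for Eif4ebp1 in 4. Its range was 0.00938 to 0.559, 0.0163 to 0.559 and 0.0242 to 0.559. The causes were not tested. The ratios pair the 2 livers of an array. With channels as separate samples and no replicate block, the adjusted p in limma was 0.0495 for Sesn2, 0.0192 for Tsc1 and 0.0867 for Eif4ebp1. Tsc2 was too dim for any of these values.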

Other observations

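Besides Ddit4, 3 kept probes had a dye term at least as large, and they are given here as values chosen after they were seen. Bcl6, a transcriptional repressor, had ratios of 1.31, 1.72, -1.14 and -1.82, with Cy5 above Cy3 by 1.33 in fasted and 1.67 in re-fed livers. Osgin1 had ratios of -2.41, -2.21, 0.68 and 0.31, with Cy5 below Cy3 by a difference of -1.94 in fasted and -0.86 in re-fed livers. A probe of the pancreatic amylase gene Amy2a5 had 0.21, -0.41, -6.80 and -0.03, so that its term rests on replicate 3. The brighter of the 2 probes of this gene, used among the acinar markers, had 0.06, 0.34, -1.23 and 0.13. Asns, an ATF4 target that makes asparagine, had ratios of 1.35, -0.50, 1.25 and -0.54, of both signs within each dye orientation and high on the replicates 1 and 3.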
